A study of Homo sapiens with 9 samples.

Results

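The genes described here are the WNT ligands, their Frizzled, LRP and LGR receptors, the secreted antagonists, and the AXIN, NKD1, RNF43, ZNRF3, beta-catenin and TCF/LEF genes that pass the signal on or limit it. They were chosen by gene name among protein-coding rows, and 54 of the 60829 rows of the deposited table met the rule. They comprise 19 WNT ligands, 10 Frizzled receptors, 2 LRP co-receptors, 3 LGR receptors, 10 extracellular antagonists, 5 feedback regulators and 5 nuclear effectors.

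WNT ligands are lipid-modified secreted proteins that bind Frizzled receptors together with LRP5 or LRP6. In the canonical branch this stops the destruction complex, of which AXIN proteins are the scaffold, from degrading beta-catenin, and beta-catenin then acts with TCF/LEF factors on target genes. In human pluripotent cells WNT signals are known for driving exit towards mesendoderm, and FZD7 is known as an abundant Frizzled receptor of these cells.

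Total RNA was sequenced after ribosomal RNA depletion from H1 cells, a human embryonic stem cell line, kept in a stem cell medium on vitronectin. The control clone, called chrX-ctrl in the labels and given as wild type, gave 4 libraries, and the clone with a knockout of the HERVHlin locus on chromosome X, called chrX-KO, gave 5. The libraries of a group are successive passages of 1 clone, handled in the series design as technical replicates (biological ones by the titles), so p-values measure the spread between passages and a difference between the 2 clones cannot be told apart from one due to the knockout. A label calls all 9 libraries differentiated cells, while the 10 pluripotency markers checked, POU5F1, SOX2 and NANOG among them, summed to between 37972 and 81318 normalized counts in the control clone and between 33303 and 49644 in the knockout clone. Of these markers 9 were lower in the knockout clone by limma's log2 fold change (median -0.39), beside 49.0% of all tested rows, and limma called 0 of them.

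Libraries held 19838682 to 31192630 reads, of which protein-coding genes took 26.3% to 50.8%, with the highest share in control 3. Values are normalized counts, that is reads divided by the authors' size factor of the library. Of the 3 rows that the authors mark as knocked out, gene.human_00015544 ranged from 1316 to 3935 normalized counts in the control clone and from 25.9 to 73.0 in the knockout clone. The row gene.human_00001528 ranged from 312 to 1036 and from 68.0 to 169, and the remaining row from 1711 to 3433 and from 1149.5 to 1861, with overlap (limma adjusted p = 0.44). Among markers of other cell types, the 8 trophectoderm and amnion genes, mostly GABRP, summed to 1749 to 4602 normalized counts in the control clone and 667 to 1788 in the knockout clone. Of these 8 genes 6 had a mean under 10. GABRP, a GABA receptor subunit, measured 1637 to 4362 in the control clone and 487 to 1571 in the knockout clone without overlap, with an adjusted p = 0.10 by limma, 0.12 by edgeR, 6.2e-04 by DESeq2 and 5.3e-04 in the authors' deposited table. The summed counts overlapped between the clones for endoderm (64.8 to 174 and 53.0 to 108), neural ectoderm (667 to 2371 and 771 to 1120) and fibroblast markers (3240 to 5818 and 2886 to 4513), with 0 calls by any of these 4 in the 3 lists. Whether cells of these types were present, and what part they had in the differences below, was not tested.

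Differences were tested with limma on log2(value + 1) over the 27777 rows with enough reads, and a row was called when its Benjamini-Hochberg adjusted p was under 0.05. The added 1 pulls the fold changes of low genes towards 0. Of the 54 genes 33 could be tested, and limma called 0 of them, where it called 0.540% of all rows (0.115% higher and 0.425% lower in the knockout clone). With p not adjusted, 6 genes were under 0.05 in limma, 5 of them lower (FZD5, WNT3, SFRP5, FZD7 and AXIN2) and 1 higher (FZD2), where 8.63% of all rows were under it, 5.05% lower and 3.58% higher. EdgeR's quasi-likelihood test on the recovered reads called FZD5 alone (0.544% of all rows), DESeq2 called FZD5, FZD7 and WNT3 (2.14% of all rows), and the authors' deposited table calls the same 3 genes lower (2.05% of its rows with an adjusted p, 1.53% lower and 0.525% higher). For 2 of the 33 genes, FZD5 and WNT3, every knockout library lay below every control library, and for 0 every one lay above. WNT3 reached the read cutoff of the filter in 4 control and 0 knockout libraries. It thus entered the test through the clone in which it was high, which limits its place in each of these counts. Of all rows 3.95% were free of overlap, 2.60% lower and 1.35% higher. In bulk RNA fewer cells of a type and less RNA per cell cannot be told apart.

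**Figure D1:**
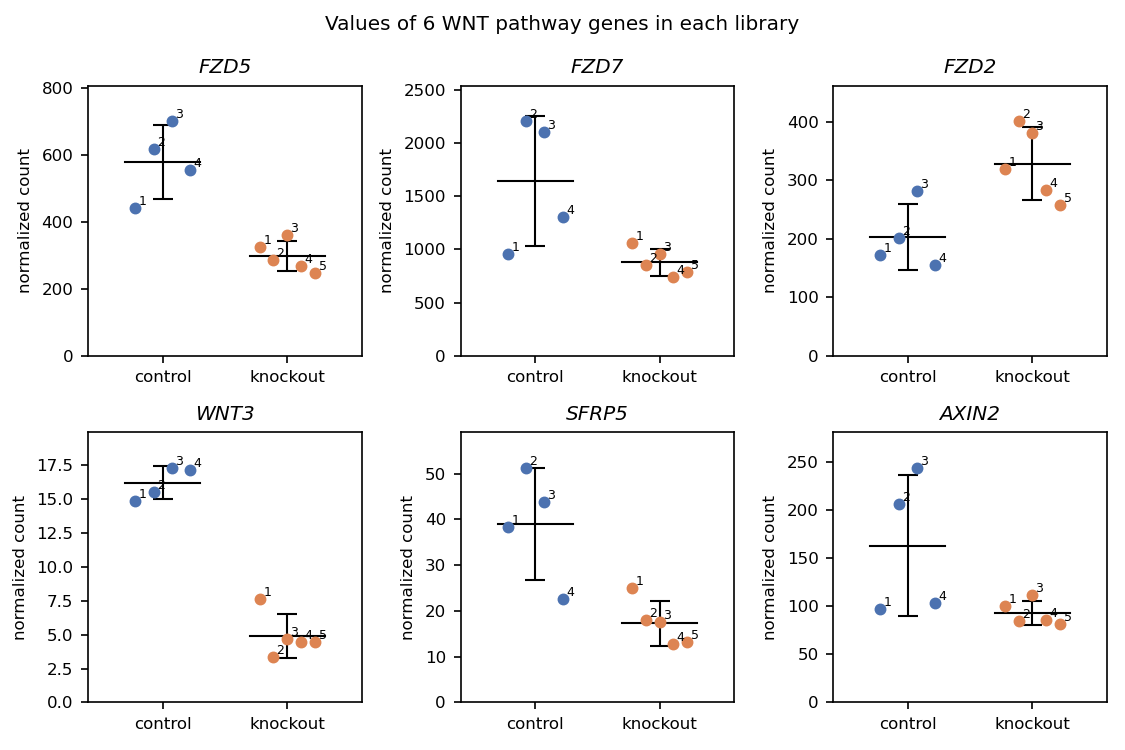
Normalized counts (y axis, from 0) of the 6 genes with an unadjusted limma p under 0.05 in the control and the knockout clone. Each point is 1 library, numbered by its replicate, and lines and bars give the mean and SD. FZD5 and WNT3 show no overlap between the clones, whereas the knockout range holds control 1 for FZD7, controls 1 and 4 for AXIN2, control 3 for FZD2 and control 4 for SFRP5.

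FZD5, which encodes a Frizzled receptor known from canonical WNT signalling, had the smallest p of the 54 genes. It lies on the minus strand of chromosome 2 (chr2:207762586-207769563, GRCh38, GENCODE 29). Its normalized counts were 439.9, 617, 700.1 and 555 in control replicates 1 to 4, and 325, 288, 359.8, 268 and 248 in knockout replicates 1 to 5. Every knockout library lay below every control library, and the lowest control library, control 1, exceeded the highest knockout library, knockout 3. The means were 578 ± 110 (SD, n = 4) and 298 ± 44.9 (SD, n = 5), 1.94 times more in the control clone. The log2 fold change was -0.95 (SE 0.17, unadjusted 95% interval -1.34 to -0.56), with an adjusted p = 0.056 by limma, 0.042 by edgeR and 3.9e-05 by DESeq2. The authors' deposited table gives -0.96 with an adjusted p = 1.6e-05. With the replicate number as a block the limma adjusted p was 0.16, and among fits that drop 1 library the call was made only without control 1 (limma adjusted p = 0.044, against up to 0.205 without control 2).

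The FZD5 promoter is shown because this gene had the smallest p. SFRP5 is the next member by p with a promoter entry whose upstream bases lie outside the gene's own GENCODE 29 span. WNT3 has a smaller p than SFRP5, but its entry in the RefSeq promoter table lies within the span of its gene. Each run holds the 250 bases before the RefSeq start, read 5′ to 3′ on the gene's strand, both genes being on the minus strand of GRCh38.p14 (chr2:207769907-207770156 for FZD5 and chr10:97772000-97772249 for SFRP5). Capitals mark the GC box GGGCGG on either strand, a motif chosen after the sequences were seen, and overlapping copies run together.
FZD5: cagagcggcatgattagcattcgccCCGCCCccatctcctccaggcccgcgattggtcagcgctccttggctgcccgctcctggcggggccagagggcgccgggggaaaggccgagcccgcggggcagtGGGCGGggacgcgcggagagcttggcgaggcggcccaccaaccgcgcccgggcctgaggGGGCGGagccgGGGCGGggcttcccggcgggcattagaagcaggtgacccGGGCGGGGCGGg
SFRP5: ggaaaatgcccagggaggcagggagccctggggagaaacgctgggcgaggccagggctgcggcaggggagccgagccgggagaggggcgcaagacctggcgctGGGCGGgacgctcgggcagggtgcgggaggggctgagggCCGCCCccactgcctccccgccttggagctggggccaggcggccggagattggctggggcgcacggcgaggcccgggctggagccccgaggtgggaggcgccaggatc
FZD5 holds 6 GC boxes in this stretch and SFRP5 holds 2, and both stretches have 76.8% G and C. Of the 54 genes 36 had a promoter in the table, counted over 250 bases before and 50 after the start. The TCF/LEF core CTTTGAT, searched on both strands, was in 0 of these 36 and in 2.64% of all 27305 promoters of the table, which also holds noncoding genes. The GC box was in 29 of the 36, or 80.6%, and in 44.6% of all promoters. The median share of G and C was 68.3% in the 36 and 58.3% in all promoters, and its part in both motif shares was not tested. A match of letters is a description of the sequence only.

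FZD7, the Frizzled receptor with the highest level here, also stood lower in the knockout clone, with overlap. It lies on the plus strand at chr2:202034587-202038445. Its normalized counts were 957, 2205, 2102 and 1301 in control replicates 1 to 4 and 1057, 857, 957, 744 and 786 in knockout replicates 1 to 5. Control 1 lay within the knockout range, while the other 3 control libraries lay above it. The means were 1641 ± 609 (SD, n = 4) and 880.0 ± 128 (SD, n = 5), with a log2 fold change of -0.83 (SE 0.25, interval -1.40 to -0.26). The adjusted p was 0.30 by limma, 0.25 by edgeR and 0.039 by DESeq2, and 0.029 in the authors' deposited table.

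FZD2, a Frizzled receptor known from both canonical and WNT5A signalling, measured higher in the knockout clone. This gene lies on the plus strand at chr17:44557459-44559570. Its normalized counts were 173, 202, 283 and 156 in control replicates 1 to 4 and 319.9, 401, 382, 283 and 257 in knockout replicates 1 to 5. Only control 3 reached into the knockout range, and it is the library with the highest coding share, whose part in this was not tested. The means were 204 ± 56.0 (SD, n = 4) and 329 ± 62.0 (SD, n = 5), and the log2 fold change was 0.71 (SE 0.21, interval 0.23 to 1.18). The adjusted p was 0.28 by limma, 0.20 by edgeR and 0.054 by DESeq2, and 0.080 in the authors' deposited table. When libraries were scaled to their coding reads, FZD2 was called by limma (0.91, adjusted p = 0.016), a scaling that shifts the median log2 fold change of all rows from 0.01 to 0.21.

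Because FZD2 measured higher while FZD5 and FZD7 measured lower, the make-up of the receptor family was computed within each library, where library scaling cancels. Levels of different genes were compared as normalized counts per kilobase of exon, with lengths from GENCODE 29. FZD7 stood at 425 ± 158 per kilobase in the control clone (SD, n = 4) and 228 ± 33.1 in the knockout clone (SD, n = 5). FZD2 came next with 96.4 ± 26.5 and 156 ± 29.3, and FZD5 with 86.1 ± 16.3 and 44.4 ± 6.69 per kilobase, so that FZD2 and FZD5 did not differ beyond their spread in the control clone while FZD2 lay above FZD5 in the knockout clone. FZD2 made up 15.9%, 10.9%, 14.7% and 12.6% of the summed Frizzled level in control replicates 1 to 4. In knockout replicates 1 to 5 its share was 24.6%, 32.0%, 30.02%, 29.9% and 27.1%, with no overlap between the clones. The share of FZD7 ranged from 48.2% to 65.3% in the control clone and from 37.4% to 45.3% in the knockout clone, and that of FZD5 from 10.5% to 14.1% and from 7.22% to 8.90%, again without overlap. The ratio of FZD2 to FZD5 in normalized counts was 0.28 to 0.40 in the control libraries and 0.99 to 1.40 in the knockout libraries. Shares of other genes separated the clones too, such as that of FZD1 (0.179% to 0.267% and 0.290% to 0.355%). Within their own roles, so did those of CTNNB1 (30.6% to 37.5% and 39.4% to 47.6%) and TCF7L1 (40.6% to 47.4% and 34.0% to 40.3%), and those of WNT3 and SFRP5. All these shares and the ratio were looked at after the values of the genes were known and carry no test. They show unequal change, not which gene changed.

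**Figure D2:**
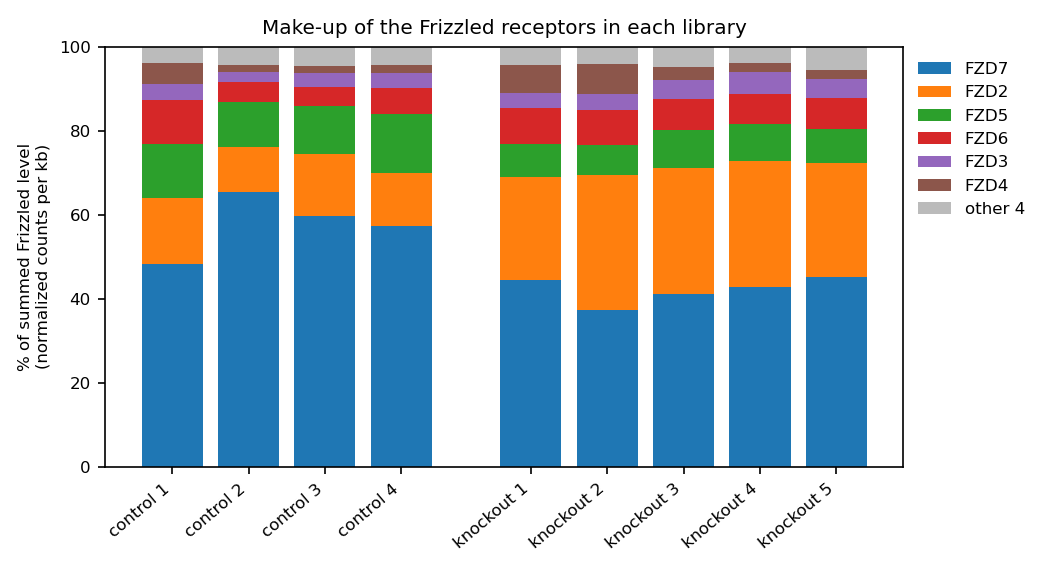
Share of each Frizzled gene (y axis, in %) in the summed Frizzled level per kilobase of exon, for each of the 4 control and 5 knockout libraries (bars). The orange FZD2 segment spans 10.9% to 15.9% in control libraries and 24.6% to 32.0% in knockout libraries, while the blue FZD7 segment is shorter in every knockout library than in any control library.

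The other Frizzled genes gave no call by limma, edgeR, DESeq2 or the authors' deposited table. FZD6 measured 176 ± 30.4 and 174 ± 39.1 normalized counts (log2 fold change -0.02, interval -0.48 to 0.43) and FZD3 319.5 ± 57.3 and 315 ± 32.4 (-0.01, interval -0.35 to 0.33). FZD9, FZD8 and FZD1 had mean values of 11.2 to 44.7 normalized counts in the control clone and 12.4 to 41.0 in the knockout clone. FZD10 had too few reads for the test, 29 over all 9 libraries. FZD4, known as the receptor of Norrin as well as of WNT proteins, differed more within the clones than between them. Its normalized counts were 191, 117, 111 and 81.3 in control replicates 1 to 4 and 297, 308, 143, 73.2 and 75.2 in knockout replicates 1 to 5. The highest values were in replicate 1 of the control clone and replicates 1 and 2 of the knockout clone, and the log2 fold change was 0.32 (SE 0.49). The exons of FZD4 overlap those of PRSS23 on the opposite strand, and no source used here says whether counting used the strand.

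Of the other surface components, LRP5 and LRP6, the co-receptors of the canonical branch, measured 244 ± 35.3 and 548 ± 31.0 normalized counts in the control clone and 218 ± 11.8 and 468 ± 50.8 in the knockout clone. Their values in the control libraries were 227, 259, 284 and 204 for LRP5 and 538, 511, 561 and 583 for LRP6. In the knockout libraries they were 236, 213, 221, 217 and 203 for LRP5 and 552, 449.9, 477, 423 and 439 for LRP6, so the clones overlapped for both genes. The log2 fold changes were -0.15 (interval -0.46 to 0.16) and -0.23 (interval -0.51 to 0.05), and that of LRP5 came to 0.05 when scaled to coding reads and to -0.07 and -0.23 without control 3 and control 4. LGR4, a receptor for R-spondins, was the main LGR gene. It measured 745, 750.4, 809 and 796 normalized counts in the control clone and 653, 542, 755, 769 and 590.4 in the knockout clone, with overlap and a log2 fold change of -0.24 (SE 0.14, interval -0.55 to 0.07). Per kilobase LGR4 stood at 122 ± 5.10 and 104 ± 15.7, far above LGR6 at 4.69 ± 1.03 and 3.47 ± 2.02. LGR6 measured 27.6, 20.2, 21.9 and 16.3 normalized counts in the control and 29.7, 20.3, 5.82, 12.0 and 11.8 in the knockout libraries (log2 fold change -0.57, SE 0.44, and -0.29 without knockout 3). LGR5, known as a marker of adult epithelial stem cells, held 9 reads over all libraries.

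WNT ligands were the group with the lowest levels. Together the 19 genes held 141 to 192 normalized counts in the control libraries and 96.6 to 248 in the knockout libraries, and 13 of them had too few reads for the test, with WNT2 at 0 reads throughout. Per kilobase of exon WNT8A and WNT5A were the highest, at 8.98 ± 3.26 and 6.74 ± 1.77 in the control clone and 13.9 ± 14.6 and 5.84 ± 1.95 in the knockout clone, and each pair of values lay within the spread.

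WNT3, a canonical ligand known for its part in primitive streak formation, was the only tested WNT gene whose clones did not overlap. It lies on the minus strand at chr17:46762506-46833154. Its normalized counts were 14.9, 15.5, 17.3 and 17.2 in control replicates 1 to 4 and 7.66, 3.38, 4.66, 4.48 and 4.42 in knockout replicates 1 to 5. All knockout libraries lay below all control libraries, but these values rest on 89 reads in all. The means were 16.2 ± 1.21 (SD, n = 4) and 4.92 ± 1.61 (SD, n = 5), a ratio of 3.30. The log2 fold change was -1.58 (SE 0.38, interval -2.42 to -0.73), with an adjusted p = 0.16 by limma, 0.076 by edgeR and 0.043 by DESeq2, and 0.012 in the authors' deposited table. WNT3 reached the read cutoff of the filter in 4 control libraries and 0 knockout libraries, so it entered the test through the clone in which it was high, and it is not part of the test with a minimum count of 50. The next coding gene on chromosome 17 is WNT9B, also a WNT ligand, which held 5.70 ± 1.31 and 5.53 ± 1.80 normalized counts and was not tested.

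WNT8A and WNT5A showed how much single libraries weighed. WNT8A, a canonical ligand of early embryos, measured 20.2, 24.9, 21.0 and 9.03 normalized counts in the control clone and 80.5, 27.1, 25.6, 6.73 and 5.16 in the knockout clone. Knockout 1 stood apart from the other 4 libraries of its clone, and the log2 fold change of 0.07 (SE 0.73) came to -0.44 without it. With all libraries the WNT8A value was 0.67 by edgeR and 0.65 by DESeq2 (adjusted p = 0.87 and 0.94). Knockout 1 is also the library with the largest share of reads in rows with miRBase-style names, 31.4%, and the part of this in its WNT8A value was not tested. WNT5A, known for noncanonical signalling, measured 62.7, 51.3, 53.8 and 31.6 in the control clone and 62.3, 39.5, 52.4, 36.6 and 25.1 in the knockout clone, which overlapped (-0.23, SE 0.31). Without 1 library the WNT5A value ran from -0.05 (without knockout 5) to -0.43 (without control 4), and was -0.10 without control 1 and -0.37 without knockout 1. WNT5B measured 19.1, 17.1, 7.29 and 7.23 normalized counts in the control clone and 21.1, 21.4, 10.5, 6.73 and 5.16 in the knockout clone. Its values were higher in replicates 1 and 2 of both clones. WNT2B and WNT4 stood at means of 10.3 to 12.2 in either clone, with log2 fold changes of 0.09 and -0.03. WNT7B, below the read minimum with 19 reads in all, had 1.81 to 7.29 normalized counts in the control libraries and 0.737 to 1.16 in the knockout libraries, without overlap and without a test.

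**Figure D3:**
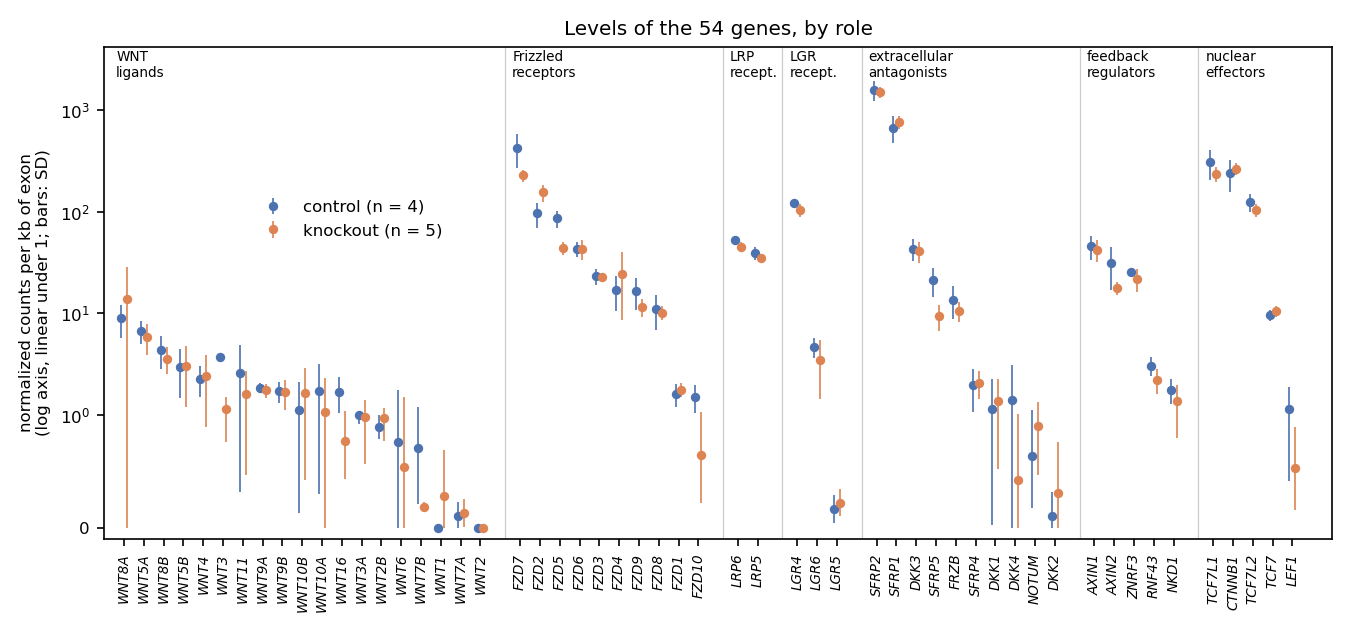
Mean normalized counts per kilobase of exon (y axis, log scale above 1 and linear below) of the 54 genes, grouped by role, in the control (n = 4) and knockout (n = 5) clones, with SD bars cut off at 0. SFRP2 is the highest of the 54 genes, and the 19 WNT ligands, with WNT8A at 8.98 in the control clone as the highest there, lie below FZD7, FZD2 and FZD5.

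Secreted antagonists were the most abundant of the genes studied, and most of that was SFRP1 and SFRP2, which encode secreted proteins with a Frizzled-like domain that binds WNT ligands. SFRP2 measured 3225, 2887, 4279 and 2551 normalized counts in the control clone and 2733, 3538, 3179, 2635 and 3146 in the knockout clone. SFRP1 measured 2576, 2702, 4614 and 2929 in the control clone and 3793, 3431, 4459, 3227 and 3255 in the knockout clone. The clones overlapped for both genes, control 3 was the highest control library for each, and the log2 fold changes were -0.07 (interval -0.46 to 0.33) and 0.21 (interval -0.23 to 0.66). That of SFRP2 turned to 0.14 when scaled to coding reads and to 0.20 under quantile normalization. That of SFRP1 was 0.42 and 0.47 under these scalings, 0.40 without control 3, and 0.12, 0.14 and 0.13 without control 1, control 2 and knockout 3. Per kilobase SFRP2 stood at 1592 ± 368 and 1499 ± 180 and SFRP1 at 673 ± 199.7 and 763 ± 108.

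SFRP5, of the same family, stood apart from them. Its gene lies at chr10:97766751-97771952. The normalized counts were 38.3, 51.3, 43.8 and 22.6 in the control clone and 24.9, 18.0, 17.5, 12.7 and 13.3 in the knockout clone. Only control 4 and knockout 1 overlapped. The means of 39.0 ± 12.2 and 17.3 ± 4.89 gave a log2 fold change of -1.11 (SE 0.32, interval -1.82 to -0.40), with an adjusted p = 0.25 by limma, 0.23 by edgeR and 0.10 by DESeq2, and 0.055 in the authors' deposited table. DKK3, a divergent Dickkopf protein, measured 218 ± 53.2 and 207 ± 48.6 normalized counts, and FRZB, an SFRP relative, 43.1 ± 15.5 and 33.5 ± 7.40, each with overlap. The Dickkopf genes that block LRP co-receptors had few reads, with 28 reads over all libraries for DKK1, 8 for DKK2 and 7 for DKK4, and NOTUM, an enzyme that removes the lipid of WNT proteins, held 23 reads. SFRP4 held 68 reads, and none of these 5 could be tested.

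Among the feedback regulators, AXIN2, whose gene is a known target of canonical signalling, was lower on average with overlap. It lies at chr17:65528563-65561647, and its exons overlap those of the annotated gene AC004805.1 on the same strand, so reads may be shared. The normalized counts were 97.8, 207, 244 and 104 in the control clone and 101, 84.6, 112, 86.0 and 81.8 in the knockout clone. Control 2 and control 3 lay above all knockout libraries, and control 1 and control 4 lay within the knockout range. The log2 fold change was -0.70 (SE 0.29, interval -1.35 to -0.05), with an adjusted p = 0.53 by limma, 0.51 by edgeR, 0.29 by DESeq2 and 0.22 in the authors' deposited table, and it came to -0.47 without control 3 and -0.55 without control 2. AXIN1, the scaffold of the destruction complex, measured 318, 353, 456 and 242 in the control clone and 299, 416, 382, 253 and 237 in the knockout clone (-0.11, interval -0.63 to 0.41), and turned to 0.10 when scaled to coding reads and 0.04 without control 3. RNF43 and ZNRF3, membrane ubiquitin ligases that clear Frizzled receptors, and NKD1, an inhibitor of Dishevelled, had log2 fold changes of -0.45, -0.25 and -0.39, with adjusted limma p between 0.73 and 0.80 and overlapping clones. The exons of RNF43 overlap those of AC004687.2 and SUPT4H1 on the same strand and TSPOAP1-AS1 on the opposite one. Reads of RNF43 may thus be shared too.

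Of the nuclear effectors, CTNNB1, which encodes beta-catenin, measured 2266, 2456, 4371 and 2390 normalized counts in the control clone and 3015, 3289, 3924, 2815 and 2874 in the knockout clone. Control 3 was far above the other 3 control libraries, which all lay below the knockout libraries, and the log2 fold change was 0.19 (SE 0.21, interval -0.29 to 0.67) and 0.41 without control 3. TCF7L1, a repressor of WNT targets in pluripotent cells, measured 1223, 1255, 1994 and 965 in the control clone and 796, 1123, 1272, 1064 and 974 in the knockout clone, with overlap (-0.34, interval -0.84 to 0.15, and -0.14 without control 3). Per kilobase TCF7L1 and CTNNB1 stood at 308 and 241 in the control clone and at 237 and 267 in the knockout clone. TCF7L2 and TCF7 had log2 fold changes of -0.24 and 0.13. LEF1, the TCF/LEF gene with the lowest level, held 41 reads and could not be tested, with 3.11 to 11.9 normalized counts in the control clone and 0.958 to 5.16 in the knockout clone.

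**Figure D4:**
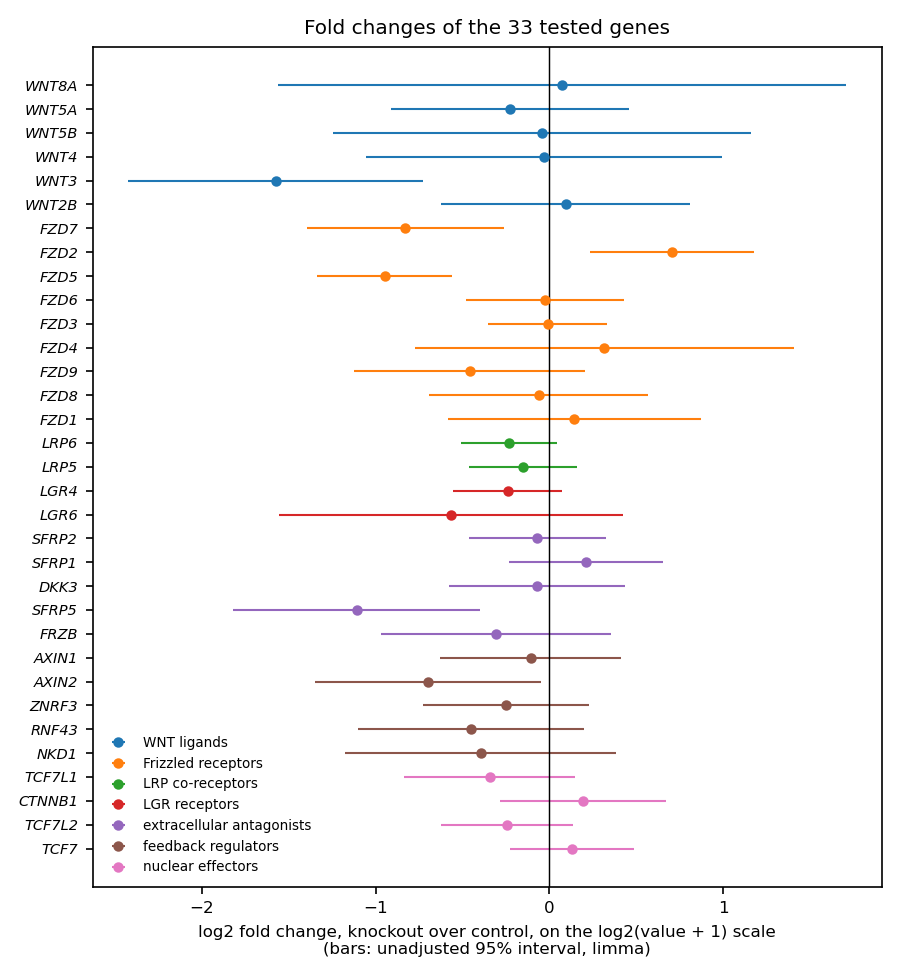
Log2 fold change of the knockout over the control clone (x axis, log2(value + 1) scale) for the 33 tested genes, coloured by role, with unadjusted 95% intervals from limma. The intervals of WNT3, FZD7, FZD5, SFRP5 and AXIN2 lie below 0 and that of FZD2 above 0, and all others span 0.

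Of the 33 tested genes 25 had a negative log2 fold change, with a median of -0.15, where 49.0% of all tested rows were negative with a median of 0.01 and the median of tested coding rows was -0.09. By role 6 of 9 Frizzled, 4 of 6 WNT, 4 of 5 antagonist, 5 of 5 feedback and 2 of 4 nuclear genes were negative, as were both LRP and both LGR genes. Scaled to coding reads, the count was 16 of 33 and the median 0.05, where the median of all tested rows was 0.21. The sign of the genes' median thus depends on the scaling, while it lay below the median of all tested rows under either scaling. All these genes are coding, whereas the tested rows include noncoding ones, and a coding median under the coding-read scaling was not computed. By library, the genes' median log2 difference from the control mean overlapped between the clones. It ran from -0.22 to 0.24 in control libraries and from -0.39 to 0.002 in knockout libraries. These counts and medians are a description and carry no test.

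Another 75 genes of the pathway were taken from lists by function, and 64 of them could be tested. Limma and edgeR called 0 of the 64, while DESeq2 called 3 lower, beside 2.14% of all rows. By unadjusted limma p under 0.05 there were 2 higher and 6 lower, or 8 of 64, beside 8.63% of all rows. Of the 2 higher genes PYGO1, a nuclear cofactor of beta-catenin, reached the read cutoff in 0 control and 4 knockout libraries, so it entered the test through the clone in which it was high. The authors' deposited table calls the same 3 lower, ROR2, GPC3 and TLE2, beside 2.05% of its rows. The clones did not overlap for 5 genes, all lower in the knockout clone, beside 2.60% of all rows that were lower without overlap. All 7 genes of the list of other receptors and co-receptors had negative log2 fold changes, with a median of -0.28. Of all tested rows 49.0% were negative, and scaling to coding reads shifts the median of all rows from 0.01 to 0.21. ROR2, a receptor kinase for WNT5A, measured 41.4, 37.3, 37.4 and 42.5 normalized counts in the control clone and 18.2, 21.4, 15.1, 13.5 and 19.9 in the knockout clone, without overlap. Its log2 fold change was -1.14 (SE 0.23), with an adjusted p = 0.085 by limma, 0.097 by edgeR and 0.015 by DESeq2, and 0.0029 in the authors' deposited table. GPC3, a cell surface glypican, measured 1085 ± 62.5 and 708 ± 143 normalized counts (-0.64, adjusted p = 0.19 by limma, 0.043 by DESeq2 and 0.013 in the authors' deposited table), and GPC4, a related glypican, 1897 ± 268 and 1408 ± 212 (-0.43, limma adjusted p = 0.45). Both separated the clones.

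TLE2, a Groucho-type corepressor that binds TCF factors, measured 81.8, 90.1, 108 and 62.3 normalized counts in the control clone and 33.5, 39.5, 54.7, 39.6 and 57.5 in the knockout clone, without overlap (-0.91, SE 0.24, adjusted p = 0.19 by limma, 0.049 by DESeq2 and 0.027 in the authors' deposited table). It was the only one of 12 nuclear cofactors called by DESeq2 or the authors' deposited table, and the list's median log2 fold change was 0.06. Of 13 WNT target genes 6 could be tested, all with negative log2 fold changes (median -0.67), beside 49.0% of all tested rows. None was called by limma, edgeR, DESeq2 or the authors' deposited table, and only BAMBI had an unadjusted limma p under 0.05. The median of tested coding rows was -0.09, and scaling to coding reads shifts the median of all rows from 0.01 to 0.21. BAMBI, a decoy receptor of the TGF-beta family, measured 282 ± 76.1 and 143 ± 49.6 (-1.01, limma adjusted p = 0.30), and MIXL1, a mesendoderm factor, 17.7 ± 4.82 and 10.5 ± 3.00 without overlap (-0.71, limma adjusted p = 0.63). TBXT and EOMES, markers of the primitive streak, had too few reads, with means of 1.95 and 2.45 normalized counts in the control clone and 0.382 and 1.13 in the knockout clone. TBXT, EOMES and MIXL1 also stand on the mesendoderm marker list, whose 9 genes summed to 68.6 to 112 normalized counts in the control clone and 57.6 to 76.6 in the knockout clone.

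The remaining lists had members in both directions or no call. Of the extracellular antagonists outside the SFRP and DKK families, APCDD1, a membrane-bound inhibitor, had the smallest p and measured 23.9 ± 12.0 and 43.4 ± 4.36 normalized counts, with control 1 in the knockout range (0.93, limma adjusted p = 0.33). WLS, the carrier that brings WNT ligands to the surface, measured 72.3, 18.6, 15.5 and 19.9 in the control clone and 73.8, 56.4, 34.9, 33.6 and 42.8 in the knockout clone (0.83, SE 0.45, limma adjusted p = 0.68), with control 1 close to knockout 1, the highest library, and the other 3 control libraries below all knockout libraries. RSPO4, an R-spondin (0.41), CELSR1, a planar polarity cadherin (0.45), and CSNK1G1, a casein kinase (0.33), had the smallest p of their lists, with adjusted limma p of 0.69, 0.58 and 0.72. CELSR1 came to 0.28 without control 3, CSNK1G1 to 0.15 without control 2 and WLS to 1.32 without control 1. The 17 transducers and destruction complex genes, all tested, spanned log2 fold changes of -0.37 to 0.33 with a median of -0.03, and the 11 planar polarity genes spanned -0.43 to 0.45.

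Differences in FZD5, FZD7, FZD2 and WNT3 kept their direction under each of the settings in which they could be tested. These were 20 beside the limma fit for the 3 Frizzled genes and 19 for WNT3. The genes were named for their values in these same libraries, so the kept direction is a description only. As the clones do not overlap for FZD5 and WNT3, leaving out libraries could not turn the direction of these genes. The log2 fold change ran from -1.07 to -0.74 for FZD5, from -1.06 to -0.62 for FZD7, from 0.59 to 0.91 for FZD2 and from -2.40 to -1.20 for WNT3. FZD5 passed in 5 of the 20 settings, FZD7, FZD2 and WNT3 in 1 each.

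**Figure D5:**
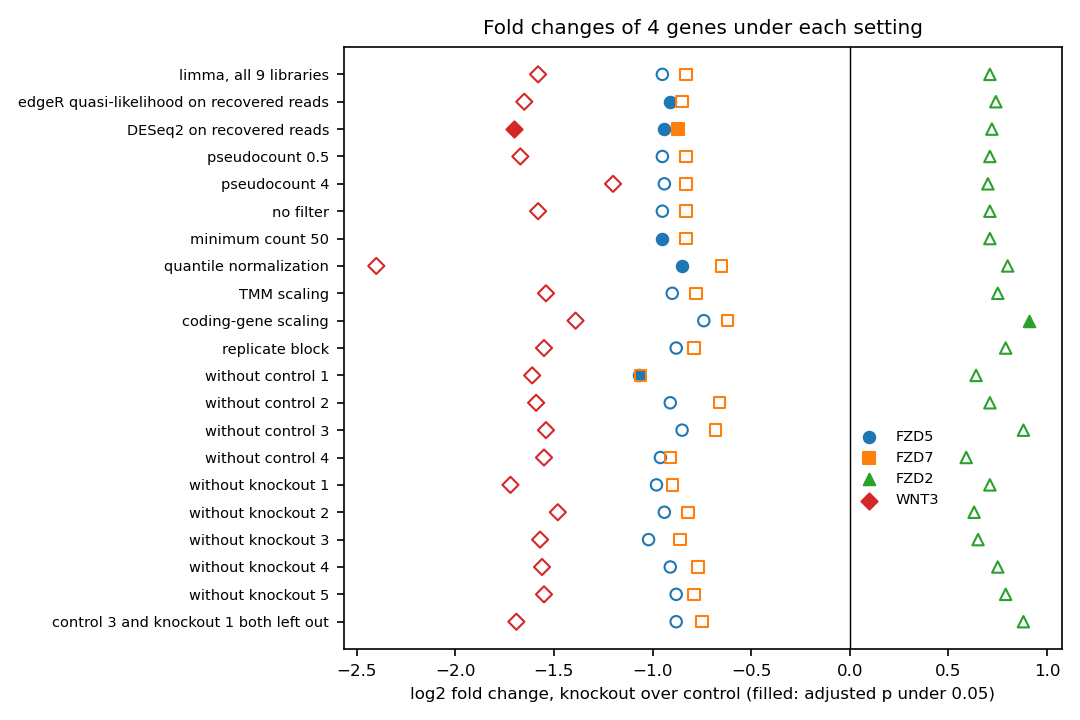
Log2 fold change of FZD5, FZD7, FZD2 and WNT3 (x axis) under limma with all 9 libraries and under each alternative (rows), with filled symbols where the adjusted p was under 0.05. FZD5, FZD7 and WNT3 stay below 0 and FZD2 above 0 wherever shown. FZD5 is filled in 5 rows, partly hidden behind FZD7 in the row without control 1, and WNT3 has no value with a minimum count of 50.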

How the data were processed

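Total RNA libraries of the control clone (4) and the knockout clone (5) were compared, grouped by their titles. The tools named, per the submitters' processing notes, are kallisto, fastp and DESeq2, with build hg38 and no versions. No source used here names the annotation release or the strand setting. The deposited table holds 1 signal column per library, gene counts that the authors divided by a size factor. Of these values 100% were whole multiples of what 1 count is worth in the library (tolerance 1e-06). This gave back whole counts, called reads here, and whether they had been rounded was not tested. The authors also deposited their own DESeq2 columns beside the signal columns (mean signal, log2 fold change and its error, test score, raw and adjusted p-value). Refitting the recovered reads of all rows with DESeq2 differed from their log2 fold changes by at most 1.4e-05.

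The main test was limma's trend method (3.58.1, in R 4.3.3) fitted to log2(value + 1) without covariates, over 27777 rows kept by filterByExpr with a minimum count of 10 in at least 4 libraries. Benjamini-Hochberg adjusted p under 0.05 was the threshold. Alternatives were edgeR 4.0.16 (quasi-likelihood) and DESeq2 1.42.0 on recovered reads, pseudocounts of 0.5 and 4, no filter, a minimum count of 50, quantile, TMM and coding-read scaling, the replicate block, and 1 or 2 libraries left out. Scripts were tested on simulated data.

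Since a batch tag in the labels holds the replicate number, libraries with 1 number were taken as paired. The correlation of their deviations from their clone's mean was 0.07, 0.02, 0.25 and 0.33 in pairs 1 to 4. The fit with this block was an alternative, in which knockout 5 has no partner. Gene positions and exon lengths came from GENCODE 29 for all 54 genes, matched on Ensembl IDs without the version. Values in every library are given for genes with a call by any tool or by the authors, an unadjusted limma p under 0.05, clones that do not overlap, or a place among the 2 highest of their role per kilobase, and for FZD4 and WNT5B, chosen after their values were seen. The genes and lists were chosen with earlier results of these data known. The result of 1 marker list is not reported here.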

Additional observations from a re-analysis of the deposited data

Results flagged for a closer look

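In 88 groups of 4 or 5 libraries, over the 33 tested genes and the 11 other pathway genes named, 5 held a library far from the others by Dixon's ratio, where chance flags about 1 in 20. CTNNB1 in control 3 measured 4371 normalized counts against 2266 to 2456 in the other control libraries, and this library has the highest coding share, 50.8%. WNT4 in knockout 1 measured 23 against 5.82 to 8.97 in the other knockout libraries, and TCF7 in knockout 5 measured 129 against 95.8 to 105. WLS in control 1 measured 72.3 against 15.5 to 19.9 in the other control libraries, and MIXL1 in control 2 measured 24.9 against 14.5 to 15.9.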

How the results depend on the processing

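With limma and all 9 libraries 0 of the 33 genes were called. The count was 3 with DESeq2 (FZD5, FZD7 and WNT3) and 1 with edgeR, with a minimum count of 50, under quantile normalization and without control 1 (FZD5 in each), and 1 when scaled to coding reads (FZD2, higher). With 1 library left out it ranged from 0 to 1. Of the 75 other pathway genes DESeq2 called 3, and limma with 1 library left out called 0. Over all rows 150 were called, 593 with DESeq2, 43 with the replicate block and 91 without both control 3 and knockout 1, and from 79 (without knockout 4) to 186 (without control 4) with 1 library left out. The replicate block changed no call among the 54 genes. Scaled to coding reads, 16 of the 33 genes were negative and their median was 0.052, beside a median of 0.21 over all tested rows. With 1 library left out 20 to 26 were negative, with medians from -0.25 to -0.10. Direction turned for LRP5 (0.05 when scaled to coding reads), for AXIN1 (-0.26 to 0.04 with 1 library left out, 0.10 when scaled to coding reads, above 0 without control 3, 0.06 without both control 3 and knockout 1), for SFRP2 (-0.17 to 0.08 with 1 library left out, 0.14 when scaled to coding reads, 0.20 under quantile normalization, above 0 without control 3, 0.11 without both libraries) and for WNT8A (-0.44 to 0.49 with 1 library left out, -0.44 under quantile normalization, -0.23 without control 4, -0.44, -0.06 and -0.04 without knockout 1, 2 and 3, -0.36 without both libraries). The cause was not tested. Depth limits the ligands most, as 13 of 19 had too few reads for the test, and a minimum count of 50 leaves no value for WNT3, WNT5A, WNT8A, SFRP5 and LGR6.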
